A study of Mus musculus with 12 samples.

Results

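Interferon-gamma induces families of GTPases and a small set of chemokines, and 10 such genes were followed in lung RNA of mice with and without bleomycin. The 10 were Gbp2, Gbp3, Gbp5 and Gbp7 of the guanylate-binding proteins, Igtp, Irgm1, Irgm2 and Iigp1 of the immunity-related GTPases, and the chemokines Cxcl9 and Cxcl10. Their identifiers in the table are ENSMUSG00000028270 (Gbp2), ENSMUSG00000028268 (Gbp3), ENSMUSG00000105504 (Gbp5), ENSMUSG00000040253 (Gbp7), ENSMUSG00000078853 (Igtp), ENSMUSG00000046879 (Irgm1), ENSMUSG00000069874 (Irgm2), ENSMUSG00000054072 (Iigp1), ENSMUSG00000029417 (Cxcl9) and ENSMUSG00000034855 (Cxcl10). They were taken by gene name from a table of 56980 genes, each name matched 1 gene, and all 10 were among the 17827 genes with enough counts to be tested. Each of 3 groups held 4 libraries of polyadenylated RNA from lung of male C57BL/6 mice aged 6 to 8 weeks. HBG mice were given 5 mg/kg bleomycin, a drug used to cause lung fibrosis in mice, into the trachea and Huashibaidu granules, a Chinese herbal preparation, by mouth at 7 g/kg. Model mice were given the same bleomycin and distilled water, and Control mice distilled water without bleomycin. What, if anything, was put into the trachea of Control mice is not labelled. The series text places the granules from a week before bleomycin to day 28, and the sample text from day 7 for 14 days, with doses L, M and G of which the libraries' own is not labelled. Whether each library is a separate animal is not labelled, so the p-values here speak only of library-to-library spread, which may be technical.

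Interferon-gamma is made mainly by T cells and NK cells, and it acts through the receptor chains encoded by Ifngr1 and Ifngr2, the kinases JAK1 and JAK2 and transcription factors that include IRF1. Promoters of its targets can hold a gamma-activated sequence, GAS, or an interferon-stimulated response element, ISRE, which IRF factors bind. Guanylate-binding proteins and immunity-related GTPases gather on the membranes around intracellular microbes, and those named Irgm, with Igtp (also called Irgm3), regulate the other immunity-related GTPases. CXCL9 and CXCL10 attract T cells and NK cells that carry the receptor CXCR3, and in lung they are made by macrophages, endothelium and epithelium, among other cells.

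Promoter windows came from the RefSeq promoter set of build GRCm38.p6. Each window runs from 250 bases before a transcription start to 50 after it. Windows of 9 of the 10 genes were read here. Iigp1, whose window was not read, is only named. On the RefSeq gene map Gbp5, Gbp7, Gbp3 and Gbp2 lie in this order on chromosome 3, with Gbp2b as the single protein-coding gene among them. Igtp and Irgm2 are neighbours on chromosome 11, which also holds Irgm1, and Cxcl9 and Cxcl10 are separated on chromosome 5 by Art3. The ISRE letters, GAAA, any 2 bases and GAAA again, on either strand, occurred in the windows of 8 of the 9 genes and in 3.44% of 32851 promoter windows of the same length. The GAS letters TTCNNNGAA, which read the same on both strands, occurred in 4 of the 9, Gbp5, Gbp7, Igtp and Irgm2, and in 8.3% of all windows. Cxcl9 alone of the 9 had neither in its window. Shown here are the starts of 5 GTPase genes, from 110 bases before the start to 20 after it, a stretch that holds all their matches. The 2 ISRE matches of Gbp3, which is not shown, also lie within such a stretch. Capitals mark the letters that match either motif, and all are written 5′ to 3′ along the gene.
Gbp2: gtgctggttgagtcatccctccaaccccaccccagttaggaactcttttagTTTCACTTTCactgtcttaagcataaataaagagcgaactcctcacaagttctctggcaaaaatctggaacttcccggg
Gbp7: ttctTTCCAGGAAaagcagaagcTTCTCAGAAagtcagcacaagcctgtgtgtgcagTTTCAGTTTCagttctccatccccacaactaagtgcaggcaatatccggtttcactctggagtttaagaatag
Igtp: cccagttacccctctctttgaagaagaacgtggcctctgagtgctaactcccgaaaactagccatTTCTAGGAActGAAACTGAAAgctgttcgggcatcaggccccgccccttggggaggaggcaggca
Irgm2: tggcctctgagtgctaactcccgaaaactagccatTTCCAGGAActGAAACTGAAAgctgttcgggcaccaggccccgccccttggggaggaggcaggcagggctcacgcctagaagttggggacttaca
Irgm1: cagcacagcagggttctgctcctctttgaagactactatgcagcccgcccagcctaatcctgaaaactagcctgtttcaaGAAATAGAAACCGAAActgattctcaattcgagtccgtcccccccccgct
These windows are chr3:142620553-142620682, + strand, for Gbp2, chr3:142530226-142530355, + strand, for Gbp7, chr11:58199446-58199575, + strand, for Igtp, chr11:58214867-58214996, + strand, for Irgm2, and chr11:48871401-48871530, - strand, for Irgm1. In Igtp and in Irgm2 a GAS match was followed after 2 bases by an ISRE match. Downstream of these matches their windows shared an identical run of 61 bases, against at most 13 between any other pair of the 9. The run reaches the last base of the Igtp window, so the identity may extend further. The 2 ISRE matches of Irgm1 overlap each other.

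The chemokine windows, from 250 bases before the start to 20 after it, are shown because these genes had the highest ratios of mean CPM in HBG or Model to that in Control. Cxcl10 had 1 ISRE match, 204 bases before the start at its near end.
Cxcl10: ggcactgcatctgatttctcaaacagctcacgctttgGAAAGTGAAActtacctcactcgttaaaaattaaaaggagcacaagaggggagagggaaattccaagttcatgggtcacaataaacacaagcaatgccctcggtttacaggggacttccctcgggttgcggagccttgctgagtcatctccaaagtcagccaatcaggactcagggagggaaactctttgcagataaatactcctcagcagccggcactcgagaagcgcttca
Cxcl9: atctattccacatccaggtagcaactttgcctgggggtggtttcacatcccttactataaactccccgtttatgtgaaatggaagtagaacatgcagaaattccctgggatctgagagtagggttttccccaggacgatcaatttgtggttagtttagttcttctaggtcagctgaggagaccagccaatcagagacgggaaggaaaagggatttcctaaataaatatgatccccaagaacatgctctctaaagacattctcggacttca
Cxcl10 lies at chr5:92348870-92349139, - strand, and Cxcl9 at chr5:92328060-92328329, - strand. A match, or its absence in this window, is a description of the letters and says nothing of binding in these lungs.

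Library totals ranged from 17979863 to 20752001 estimated counts in HBG, 19230806 to 22622406 in Model and 18864759 to 27150787 in Control. Counts were expressed as CPM, that is relative to library size after scaling by TMM factors, and 3 counts in a library corresponded to between 0.117 and 0.166 CPM. Lung identity was checked with 8 epithelial markers, among them Sftpc, Scgb1a1 and Ager. Their summed level was 32900 to 72500 CPM in HBG, 37900 to 57600 CPM in Model and 63400 to 86000 CPM in Control. Of these 8 markers, 4 had positive log2 fold changes in Model against Control, with a median of -0.017. In HBG against Control 3 of 8 were positive, with a median of -0.084. Sums of 14 T cell markers ranged from 57.4 to 234 CPM in HBG, 43.9 to 213 CPM in Model and 25.4 to 97.4 CPM in Control. Within each group the highest T cell sum was in HBG 3, Model 2 or Control 4, and an earlier analysis of these data had left out these 3 libraries together. In no library was a marker of the epithelial or T cell list at 0. In whole tissue, fewer cells of a type and less RNA per cell cannot be told apart.

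To set members beside each other, levels were divided by gene length and are given here as CPM per kilobase of the deposited gene length. Gbp2 was highest in every group, at 28.9 ± 8.7 in HBG, 23.1 ± 3.45 in Model and 25.3 ± 3.96 in Control (SD, n = 4 each). Cxcl9 was lowest, at 1.24 ± 1.21 in HBG, 1.18 ± 0.34 in Model and 0.162 ± 0.0222 in Control. In Control the order was Gbp2, Gbp7, Irgm1, Gbp3, Igtp, Irgm2, Iigp1, Gbp5, Cxcl10 and Cxcl9. The Control libraries of neighbours in this order overlapped except at 2 steps, from Iigp1 down to Gbp5 and from Cxcl10 down to Cxcl9. Gbp5 stood below the other GTPases, at 5.16 ± 1.38 in HBG, 4.14 ± 0.917 in Model and 3.74 ± 0.612 in Control. In Model the Cxcl10 mean of 4.94 ± 2.27 lay above that of Gbp5, and the libraries of the 2 genes overlapped.

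**Figure D1:**
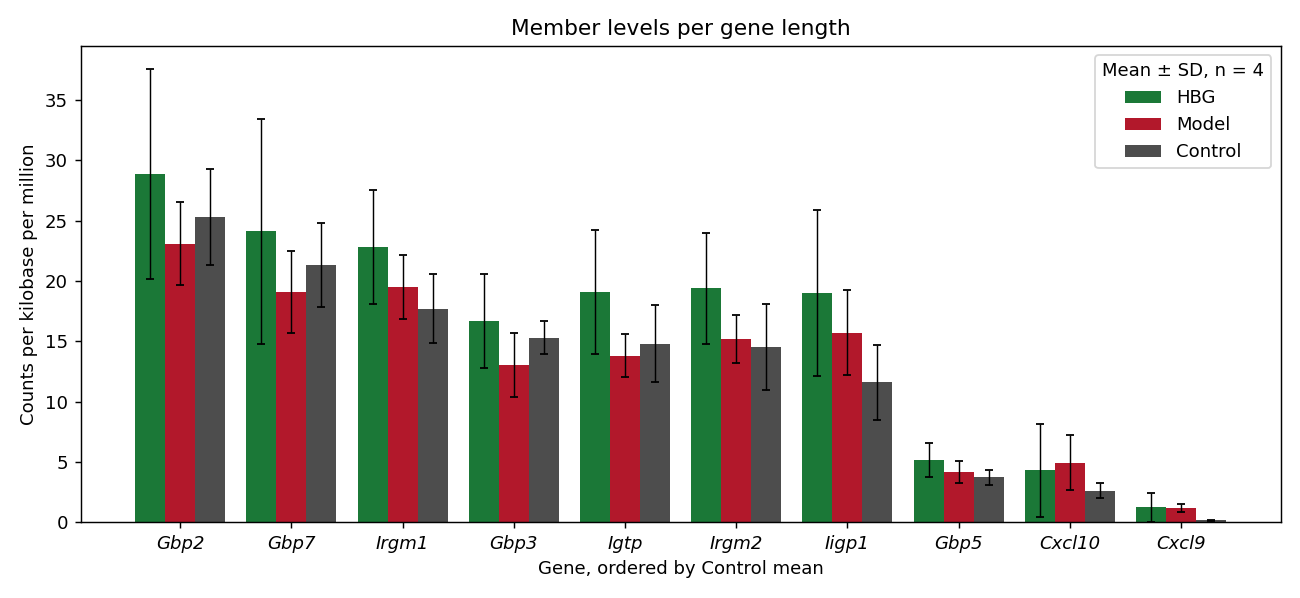
Mean level of each member in CPM per kilobase (vertical axis) by gene, ordered by the Control mean; bars are HBG, Model and Control and error bars are SD over 4 libraries. Gbp2 is highest and Cxcl9 lowest in each group, and Cxcl9 is close to 0 in Control, at 0.162.

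The comparison of HBG with Model asked whether the granules, added to bleomycin, changed these genes. All 8 GTPases had higher means in HBG, with fitted log2 fold changes between 0.23 and 0.47 and a median of 0.33, beside a median of 0.00061 and 50.1% of genes above 0 over all genes tested. None of the 10 members passed the edgeR test, in which 0% of the genes tested were called. DESeq2, which called 0.0337% of genes, and limma-voom with sample quality weights, which called 0%, also called 0 of the 10. At an unadjusted p under 0.05 there was 1 member, Igtp, and 2.43% of all genes tested. HBG and Model libraries overlapped for every member, whereas they did not for 1.13% of genes. With RLE or upper-quartile factors 8 of 8 GTPases were positive as well, and under limma-voom 7 of 8, without Iigp1.

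Among guanylate-binding proteins, Gbp2 had 58.9, 71.4, 104 and 56.7 CPM in HBG 1 to 4, and 52.0, 68.1, 49.7 and 62.4 CPM in Model 1 to 4. HBG 3 and, by a smaller margin, HBG 2 exceeded all Model libraries, while HBG 1 and HBG 4 lay inside the Model range. Its log2 fold change was 0.33 ± 0.19 (SE, edgeR adjusted p = 1). Gbp7 followed the same layout, with 38.7, 67.1, 90.0 and 45.1 CPM in HBG 1 to 4, against 44.5, 55.9, 37.3 and 53.2 CPM in Model 1 to 4. Gbp3 averaged 43.9 ± 10.3 CPM in HBG and 34.1 ± 7.01 CPM in Model (SD, n = 4 each). Gbp5, which promotes inflammasome assembly, averaged 19.4 ± 5.18 CPM in HBG and 15.6 ± 3.44 CPM in Model.

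Igtp, an immunity-related GTPase that regulates others of its family, had 35.7, 39.7, 52.2 and 27.1 CPM in HBG 1 to 4. In Model 1 to 4 it had 25.0, 33.1, 27.5 and 26.4 CPM. The HBG libraries other than HBG 4 were above every Model library. Its log2 fold change of 0.47 ± 0.20 (SE) was the highest of the members in this comparison (edgeR adjusted p = 1). Irgm2, its neighbour, averaged 68.5 ± 16.2 CPM in HBG and 53.5 ± 6.98 CPM in Model (SD, n = 4 each), again with HBG 4 alone inside the Model range. The values of Igtp, Irgm2 and Gbp7 carried fractions of counts in all 12 libraries, a sign that the authors' counting divided reads between genes, and the division between near-identical sequences is uncertain. Irgm1, whose loss in mice impairs control of mycobacteria, averaged 51.6 ± 10.7 CPM in HBG and 44.1 ± 6.06 CPM in Model. Iigp1, an effector GTPase that loads onto parasite vacuoles, had 78.5, 46.6, 75.9 and 35.7 CPM in HBG 1 to 4, against 64.9, 46.4, 43.8 and 40.2 CPM in Model 1 to 4. HBG 1 and HBG 3 exceeded all Model libraries and HBG 4 was below all of them.

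The chemokines did not share the layout of the GTPases. Cxcl10 had 10.9, 3.68, 2.41 and 1.83 CPM in HBG 1 to 4, against 6.88, 4.14, 8.01 and 2.59 CPM in Model 1 to 4. HBG 1 was above all Model libraries, HBG 3 and HBG 4 were below all of them, and HBG 2 was inside their range. On the log2 scale HBG over Model was -0.20 ± 0.52 (SE, edgeR adjusted p = 1). Cxcl9 had a log2 fold change of 0.070 ± 0.51 (SE), and its sign was not stable. It was -0.87 without HBG 1, where the HBG mean was 1.86 CPM in place of 3.58 CPM, -0.025 without Model 2, -0.056 without Model 4 and -1.12 under limma-voom. Without HBG 1 the log2 fold change of Cxcl10 was -1.03, and its HBG mean was 2.64 CPM in place of 4.70 CPM.

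**Figure D2:**
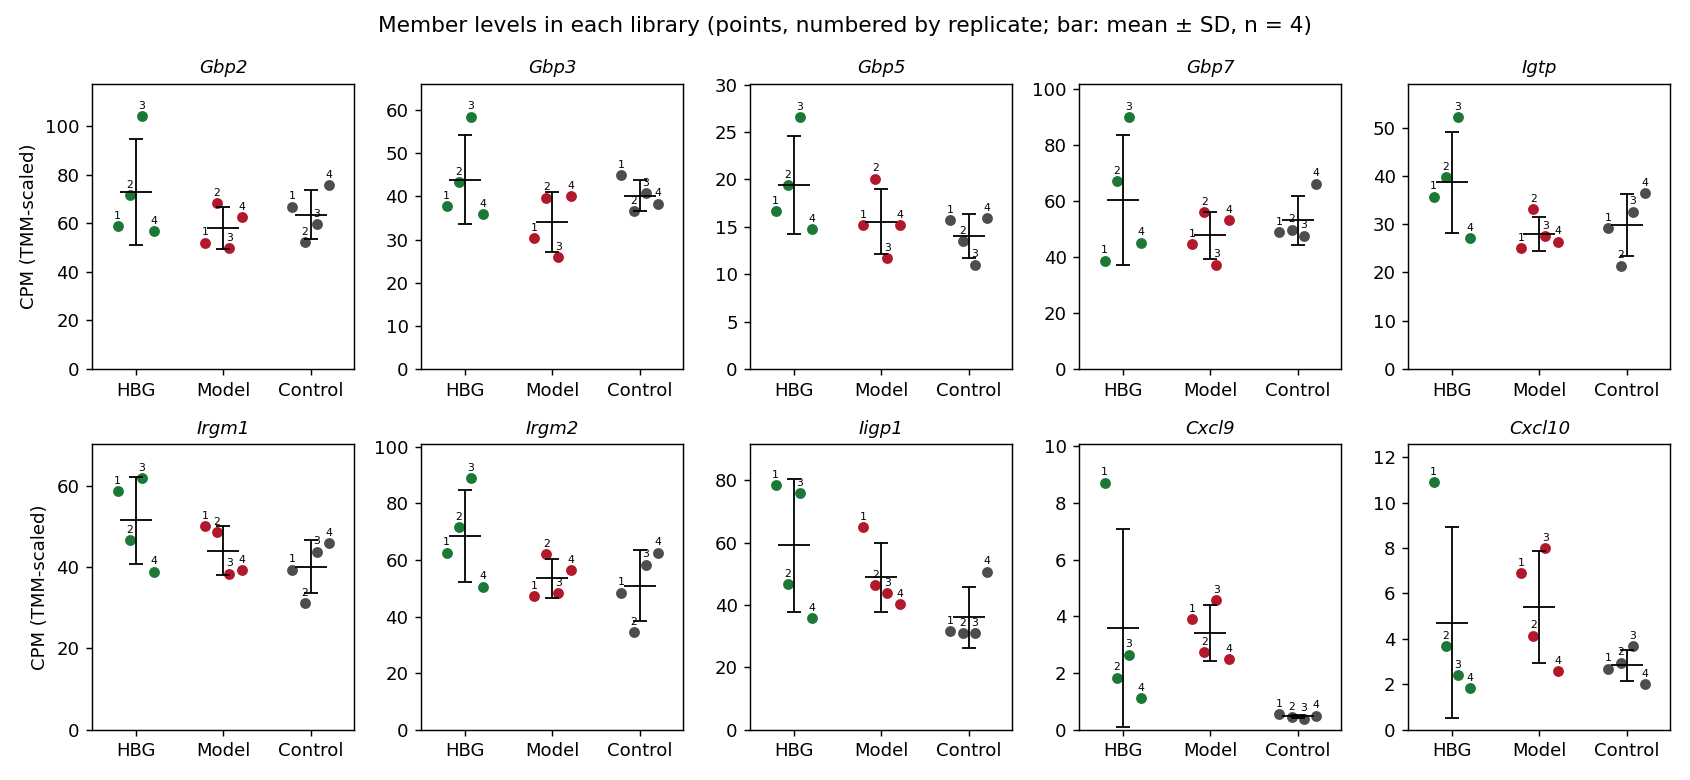
CPM of each member (vertical axes, 1 panel per gene, each starting at 0) in HBG, Model and Control; points are libraries numbered by replicate and bars are mean ± SD of 4. HBG 3 is the highest of the 12 libraries for 7 of the 8 GTPases, HBG 1 is highest for both chemokines, and the Control libraries of Cxcl9 lie below all others.

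HBG 3 was the highest of all 12 libraries for 7 of the 8 GTPases, Iigp1 being the exception, and HBG 4 was the lowest HBG library for 7 of 8. Without HBG 3 all 8 GTPases still had positive log2 fold changes against Model, with a median of 0.13 in place of 0.33. With HBG 3, Model 2 and Control 4 left out together, 8 of 8 were positive and the median was 0.24. The T cell sum was 234 CPM in HBG 3 and 213 CPM in Model 2, against 43.9 to 92.4 CPM in the other HBG and Model libraries. The NK cell sum of 11 markers was 177 CPM in HBG 3 and 186 CPM in Model 2, and 19.5 to 122 CPM in the others. The endothelial sum of 11 markers was 5090 CPM in HBG 3 and 4970 CPM in Model 2, against 1490 to 3670 CPM in the others. Over all libraries of the 2 groups, 14 of 14 T cell markers and 11 of 11 NK cell markers had positive log2 fold changes, with medians of 0.41 and 0.51. Without HBG 3 these were 6 of 14 and 8 of 11, with medians of -0.039 and 0.10, and with HBG 3, Model 2 and Control 4 left out 13 of 14 and 11 of 11, with medians of 1.05 and 1.26. Cardiac muscle markers, a list of 8 genes, were positive in 8 of 8 with a median of 0.70. They summed to 3230, 1130, 321 and 3000 CPM in HBG 1 to 4, against 506, 1220, 331 and 3090 CPM in Model 1 to 4. Without HBG 1 they were positive in 5 of 8 with a median of 0.34, and without HBG 3 in 8 of 8 with a median of 1.06. HBG 3, the highest library for most GTPases, had the lowest cardiac sum, at 321 CPM. Model 3, at 331 CPM, was the lowest Model library for 5 of the 8 GTPases. The part of these cells and of cardiac muscle in the GTPase values was not tested.

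Model was set against Control to ask how bleomycin bore on these genes. Cxcl9 stood apart, with a mean 7.31 times that of Control, and Cxcl10 had a mean 1.90 times that of Control. The 8 GTPases were divided, 4 above and 4 below 0 in log2 fold change, with a median of -0.013 beside 0.0089 over all genes tested, 51.5% of which were above 0. The number above 0 was 2 without Model 2, 3 without Control 2, 5 without Control 4 and 2 under limma-voom. Immediate early and heat shock genes, a list of 11, summed to 5160 CPM in Control 2 and to 672 to 1870 CPM in the other 11 libraries. None of the 11 genes was positive in Model against Control, with a median log2 fold change of -1.24, and 5 had an unadjusted p under 0.05. Without Control 2 the median was -0.42, with 1 of 11 positive. Of the T cell markers 13 of 14 were positive with a median log2 fold change of 0.58, and without Model 2 3 of 14 with a median of -0.52. Of the 8 cardiac muscle markers 0 were positive, with a median of -1.23, and without Control 2 the median was -0.60. The part of these lists in the GTPase values was not tested. None of the 10 members passed the edgeR test, in which 0.348% of genes were called. At an unadjusted p under 0.05 there was 1 member, Cxcl9, and 11.7% of genes. DESeq2, which called 2.5% of genes, called Cxcl9, and limma-voom, which called 6.05%, called Cxcl9 as higher and Gbp3 as lower.

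Cxcl9 had 3.89, 2.73, 4.57 and 2.49 CPM in Model 1 to 4, against 0.539, 0.45, 0.389 and 0.494 CPM in Control 1 to 4. Every Model library was above every Control library, which held for 4.2% of genes tested. The Control values rest on 9 or 10 counts in each library, and the Model values on 49 to 101. Its log2 fold change was 2.86 ± 0.58 (SE, edgeR adjusted p = 0.077), which ranked 85 by p among the 17827 genes. The adjusted p was 0.000232 with DESeq2, 0.00492 with limma-voom and 0.00361 in an edgeR fit of these 8 libraries alone. With 1 of the 12 libraries left out in turn it ranged from 0.00395 to 0.276, and the log2 fold change from 2.69 to 2.99.

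Cxcl10 had 6.88, 4.14, 8.01 and 2.59 CPM in Model 1 to 4, against 2.69, 2.95, 3.69 and 2.02 CPM in Control 1 to 4. The Model libraries other than Model 4 exceeded every Control library. Its log2 fold change was 0.92 ± 0.53 (SE, edgeR adjusted p = 0.524). Monocyte and macrophage markers, 14 genes including Cd68 and Spp1, summed to 11700, 7330, 8450 and 4420 CPM in Model 1 to 4, against 6900, 5790, 5940 and 4600 CPM in Control 1 to 4. Of the 14 markers 13 had positive log2 fold changes, with a median of 0.69, and 0 passed the edgeR test. The part of these cells in the chemokine values was not tested.

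Among GTPases, Iigp1 had 64.9, 46.4, 43.8 and 40.2 CPM in Model 1 to 4, against 31.5, 31.0, 31.0 and 50.7 CPM in Control 1 to 4. Model 1 alone exceeded Control 4, and the other Control libraries lay below all Model libraries. Its log2 fold change was 0.44 ± 0.26 (SE, edgeR adjusted p = 0.544). Gbp3 averaged 34.1 ± 7.01 CPM in Model and 40.1 ± 3.62 CPM in Control (SD, n = 4 each), or -0.24 ± 0.18 on the log2 scale (SE, edgeR adjusted p = 0.631, limma-voom adjusted p = 0.0432). The limma-voom fit gave Model 2 a quality weight of 0.33 and Model 3 a weight of 2.96, and Gbp3 was 39.7 CPM in the first and 26.0 CPM in the other. The remaining GTPases had log2 fold changes from -0.15 for Gbp7 to 0.15 for Gbp5.

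**Figure D3:**
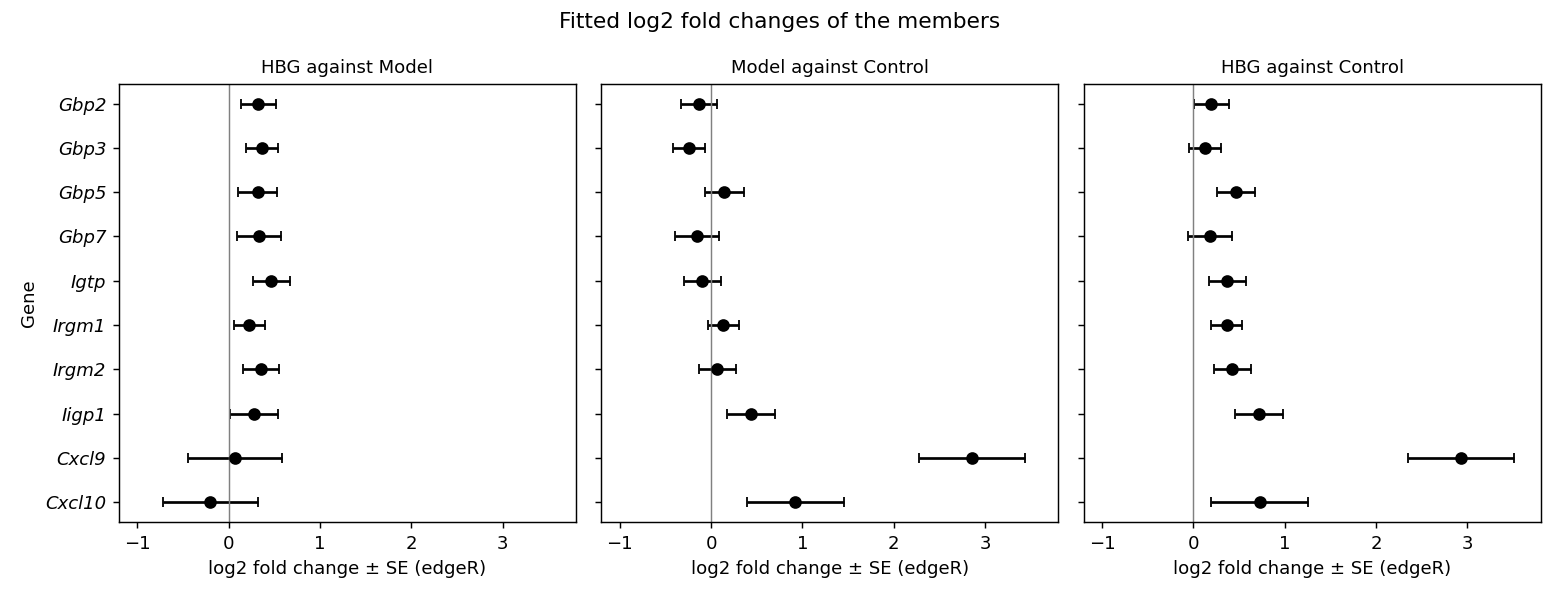
Fitted log2 fold change with its SE (horizontal axes) of the 10 members (rows) in the 3 comparisons. The GTPases lie at 0.23 to 0.47 in HBG against Model, and Cxcl9 at 2.86 and 2.93 in the comparisons with Control.

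The comparison of HBG with Control set the combined treatment beside lungs without bleomycin, and it shares HBG libraries with the first comparison and Control libraries with the second. All 10 members had positive log2 fold changes, where 51% of the genes tested did. None passed the edgeR test, in which 0.151% of genes were called. At an unadjusted p under 0.05 were 3 members, Gbp5, Iigp1 and Cxcl9, and 8.25% of all genes. DESeq2, which called 1.19% of genes, called 1 of them, Cxcl9, and limma-voom, which called 0.567%, called 0. Without HBG 3 the signs of Gbp2, Gbp3 and Gbp7 turned, to -0.028, -0.042 and -0.079, and 5 of 8 GTPases were positive. In this comparison 14 of 14 T cell markers, 11 of 11 NK cell markers and 14 of 14 monocyte and macrophage markers were positive, with medians of 0.93, 0.60 and 0.73. Without HBG 3 these were 12 of 14, 10 of 11 and 12 of 14, with medians of 0.40, 0.17 and 0.39. Of the 11 immediate early and heat shock genes 0 were positive, with a median of -1.32, and without Control 2 the median was -0.47. Cardiac muscle markers were positive in 0 of 8 with a median of -0.55, and without Control 2 in 3 of 8 with a median of -0.048. No gene of these lists passed the edgeR test, and their part in the members' values was not tested.

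Cxcl9 had 8.72, 1.84, 2.65 and 1.11 CPM in HBG 1 to 4, against 0.539, 0.45, 0.389 and 0.494 CPM in Control 1 to 4. Every HBG library was above every Control library, which held for 2.41% of genes tested. The 4 HBG values spanned a wider range than the 4 Model values, with a SD of 3.49 CPM against 0.983 CPM in Model. On the log2 scale HBG over Control was 2.93 ± 0.58 (SE, edgeR adjusted p = 0.105, DESeq2 adjusted p = 0.00019, limma-voom adjusted p = 0.155). Without HBG 1 it was 1.99, and over the libraries left out in turn the edgeR adjusted p ranged from 0.0484 to 0.369. Iigp1 averaged 59.2 ± 21.3 CPM in HBG and 36.1 ± 9.76 CPM in Control (SD, n = 4 each), or 0.72 ± 0.27 on the log2 scale (SE, edgeR adjusted p = 0.526). Gbp5 averaged 19.4 ± 5.18 CPM in HBG and 14.1 ± 2.3 CPM in Control, with HBG 1, HBG 2 and HBG 3 above all Control libraries. For Cxcl10, HBG 1 at 10.9 CPM was above all Control libraries and HBG 4 at 1.83 CPM below all of them, and without HBG 1 its log2 fold change was -0.11 in place of 0.72.

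Across the 12 libraries the members split into patterns that did not follow the treatment groups alone. As a description over 12 libraries that share one scaling, Pearson correlations of log2 CPM between pairs of GTPases had a median of 0.695 over 28 pairs, and 0.673 after the group means were removed. The lowest was 0.124, for Gbp3 with Iigp1, and Igtp and Irgm2 had the highest, 0.953. Both carried fractions of counts in all 12 libraries, where 49.3% of genes tested did in at least 1 library. The part of divided reads in this value was not tested. Cxcl9 and Cxcl10 correlated at 0.713, and at 0.838 after the group means were removed. Between GTPases and chemokines the median over 16 pairs was -0.0792, from -0.6 for Gbp7 with Cxcl10 to 0.747 for Iigp1 with Cxcl9. Iigp1 stood between the patterns: it was high in HBG 3 with the other GTPases, at 75.9 CPM, and in HBG 1 and Model 1 with the chemokines, at 78.5 and 64.9 CPM.

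**Figure D4:**
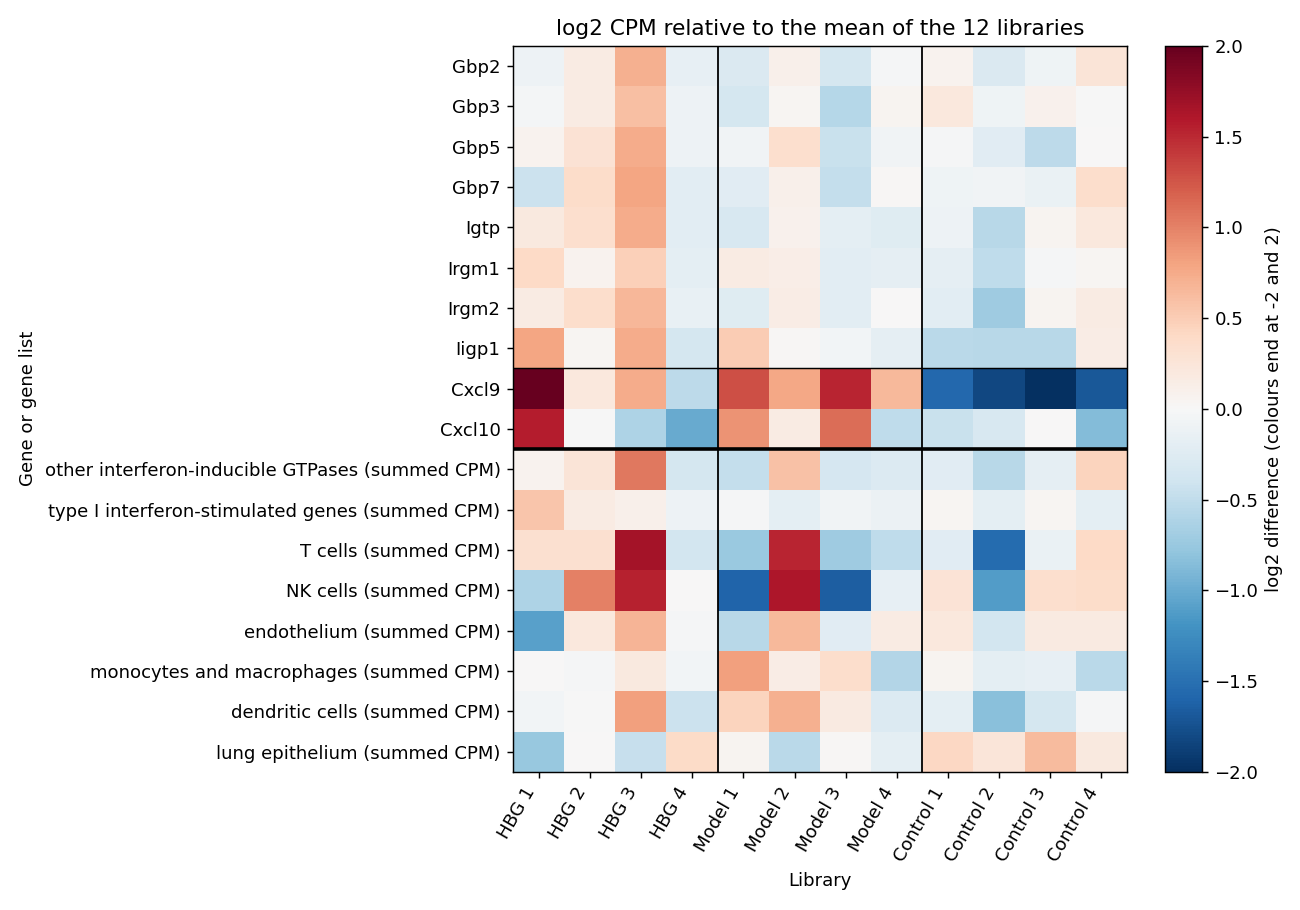
Colour gives log2 CPM relative to the mean of the 12 libraries (colours end at -2 and 2) for the 10 members (upper rows) and for the summed CPM of 8 gene lists (lower rows), with libraries in columns. The GTPases, T cell and NK cell lists are high in HBG 3, and the chemokines are high in HBG 1, Model 1 and Model 3. In HBG 1 the NK cell sum, 39.8 CPM, and the endothelial sum, 1490 CPM, are the lowest of HBG. Model 1 and Model 3 are below the other Model libraries in both, at 20.1 and 19.5 CPM for NK cells and 2160 and 2700 CPM for endothelium. In Control the NK cell sum is lowest in Control 2, at 28 CPM, which is highest for neither chemokine.

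Genes outside the 10 with the most similar pattern were sought among 14179 named genes averaging at least 1 CPM, by Pearson correlation of log2 CPM with the mean standardised pattern over the 12 libraries. For the GTPases the nearest were Parp14, an ADP-ribosyltransferase, Mcm4, a subunit of the replicative helicase, Ifi47, a further immunity-related GTPase, Slfn8, Xkrx and Fv1, a retrovirus restriction gene, with correlations from 0.942 to 0.957. Ifi47 had 27.5, 24.8, 49.4 and 17.9 CPM in HBG 1 to 4, and 21.6, 30.4, 16.2 and 17.5 CPM in Model 1 to 4, with HBG 3 highest. For the chemokines the nearest were Mmp12, the macrophage elastase, Tnfrsf9, a costimulatory receptor of activated T cells, Creg2, Eno1, a glycolytic enzyme, Stam2, an endosomal sorting protein, and Ighg2c, an immunoglobulin heavy chain, with correlations from 0.922 to 0.948. Mmp12 averaged 40.8 CPM in HBG, 45.2 CPM in Model and 3.85 CPM in Control. The median correlation over all genes compared was -0.0418 for the GTPase pattern and 0.0263 for the chemokine pattern.

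Of the signalling genes upstream, Ifng itself was too low to be tested, with 3, 7, 9 and 4 counts in HBG 1 to 4, 3, 7, 3 and 6 counts in Model 1 to 4 and 2, 0, 3 and 3 counts in Control 1 to 4. Its mean was 0.291 CPM in HBG, 0.238 CPM in Model and 0.0931 CPM in Control, and in HBG and in Model 3 of the 4 libraries had more CPM than every Control library. These values lie near the floor of 3 counts and carry no test. The receptor gene Ifngr1 averaged 150 ± 35.5 CPM in HBG, 169 ± 47.2 CPM in Model and 147 ± 16.7 CPM in Control (SD, n = 4 each). Ifngr2 averaged 71.6 ± 3.24 CPM in HBG, 77.1 ± 15.5 CPM in Model and 72.2 ± 5.29 CPM in Control. Irf1 averaged 94.8 ± 19 CPM in HBG, 84.1 ± 13.8 CPM in Model and 90.3 ± 10.8 CPM in Control. None of the 14 tested signalling genes passed in any of the 3 comparisons, with 10 of 14 positive in HBG against Model and 12 of 14 in Model against Control. Without HBG 3, 7 of 14 were positive in HBG against Model, with a median of -0.049 in place of 0.18.

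The receptor of the chemokines was distributed differently from its ligands. Cxcr3 had 2.94, 3.24, 7.47 and 1.77 CPM in HBG 1 to 4, 1.01, 7.17, 1.45 and 1.37 CPM in Model 1 to 4 and 1.56, 0.45, 1.55 and 2.22 CPM in Control 1 to 4. It was highest in HBG 3 and Model 2, whereas Cxcl9 and Cxcl10 were highest in HBG 1 and, within Model, in Model 3. Cxcr3 had a log2 fold change of 0.49 ± 0.67 in HBG against Model (SE, edgeR adjusted p = 1) and 0.92 ± 0.69 in Model against Control (SE, edgeR adjusted p = 0.632). Both depended on single libraries. The HBG mean was 2.65 CPM without HBG 3, against 2.75 CPM in Model with all its libraries and 1.28 CPM in Model without Model 2. The Control mean was 1.45 CPM, so Model lay above Control only with Model 2 included. Cxcl11, the remaining interferon-induced ligand of CXCR3, had 0 to 2 counts in each of the 12 libraries and was not tested.

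Of 14 other interferon-inducible GTPases, 13 were tested, and 0 passed in any comparison. In HBG against Model, 12 of 13 had positive log2 fold changes with a median of 0.38, and without HBG 3 10 of 13 with a median of 0.095. Gbp9 averaged 69.3 ± 38.4 CPM in HBG, 52.6 ± 23.6 CPM in Model and 52.7 ± 17.1 CPM in Control (SD, n = 4 each). Gbp4 averaged 44.5 ± 24.7 CPM in HBG, 32.7 ± 14.1 CPM in Model and 33.5 ± 20.3 CPM in Control, and Gbp6 39.7 ± 21.9 CPM in HBG, 27.4 ± 13.5 CPM in Model and 28.3 ± 8.98 CPM in Control. Gbp6, Gbp9 and Gvin1 had their highest value of the 12 libraries in HBG 3 and the next in Model 2, at 125 and 87.2 CPM for Gbp9 and 191 and 153 CPM for Gvin1, while for Gbp4 Control 4, at 63.1 CPM, came after HBG 3, at 79.7 CPM. Gbp8 averaged 8.32 ± 2.08 CPM in HBG and 7.05 ± 2.01 CPM in Model, and Gbp10, Gbp11, Gm4841, Gm12250 and F830016B08Rik averaged at most 4.50 CPM in each group. Gbp2b, between Gbp3 and Gbp2 on chromosome 3, was not tested and had at most 0.945 CPM.

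Of 22 further interferon-gamma targets, such as the antigen-processing genes Psmb8, Psmb9 and Tap1 and the class II genes H2-Aa and Cd74, 0 passed in any comparison. In Model against Control 18 of 22 were positive with a median log2 fold change of 0.32, and in HBG against Model 13 of 22 with a median of 0.098. In HBG against Model the direction rested on single libraries, with 8 of 22 and a median of -0.080 without HBG 3, and 10 of 22 and a median of -0.053 without Model 4. Of 27 type I interferon-stimulated genes, all were positive in HBG against Model, with a median of 0.34 and 0 passing. Their summed level was 1470, 1120, 1080 and 931 CPM in HBG 1 to 4, against 983, 876, 950 and 924 CPM in Model 1 to 4. HBG 1, the library with the highest chemokines, was also the highest in this sum, and without it the median was 0.17 with 24 of 27 positive.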

How the data were processed

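Lung RNA was measured in 12 libraries, 4 each of HBG, Model and Control, grouped by sample title (HBG libraries are titled HSBD). The deposited table holds estimated counts per gene. Its header names no unit, which was read from the values: 10% to 15.1% of the values of a library carried decimals and totals differed. The submitters' processing notes name the aligners STAR 2.7.9a and HISAT2, the counters HTSeq and featureCounts 2.0.1, the trimmers fastp, cutadapt and Trimmomatic 0.39, as well as FastQC 0.11.9, DESeq2 1.34.0 and the builds GRCm39 and mm10. Which counter and build made the deposited counts, and with which strand setting, is not known from the sources used here, and an estimator that divides reads can shift counts between similar genes. The deposited gene length gave levels per kilobase.

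Counts were rounded, filtered with filterByExpr (17827 of 56980 genes kept), scaled by TMM and tested with edgeR 4.0.16 (quasi-likelihood F test, all 12 libraries, group as the only term; R 4.3.3, limma 3.58.1). P-values are two-sided, adjusted by Benjamini-Hochberg over all genes tested, with a threshold of 0.05. SEs were derived from the F statistic. Correlations used log2 CPM with a prior count of 2. Alternatives were DESeq2 1.42.0, limma-voom with quality weights, other factors and filters, fits of 2 groups, a replicate block and libraries left out. Library pairs within a group differed by more than sampling noise (chi-square per degree of freedom 17.4 to 153). Floors of 3 counts cover counting error alone, as reads without molecular identifiers are not independent molecules. The test was checked on simulated counts for HBG against Model. It recovered 57 of 100 genes changed 2-fold and 95 of 100 changed 4-fold. The GTPase fold changes in that comparison, 1.17 to 1.38, were smaller than either.

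Members and gene lists were chosen with earlier results of these data known. All members were named; of the lists, genes that passed were named (there were 0), with Ifng, Ifngr1, Ifngr2, Irf1, Cxcr3, Cxcl11 and the other GTPases, and the 6 genes of nearest pattern to each class, without predicted names. A result on 1 further gene of the rule is not reported here. No protein sequences were used here.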

Additional observations from a re-analysis of the deposited data

Results flagged for a closer look

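In Control 4 the values of 2 members lay far from the other Control libraries, relative to the range of the group. Iigp1 was 50.7 CPM in Control 4 and 31.0 to 31.5 CPM in the other Control libraries. Gbp7 was 66.2 CPM in Control 4 and 47.6 to 49.8 CPM in the others. Of 30 sets of 4 libraries these were 2, and chance gives about 1 in 20. Control 4 was the highest Control library for 7 of the 8 GTPases, and its T cell sum of 97.4 CPM was the highest of the 4, the others ranging from 25.4 to 67.0 CPM. The part of those cells was not tested.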

How the results depend on the processing

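With 1 library left out in turn, the genes called in Model against Control ranged from 23 to 100, against 62 with all libraries. They were 100 without HBG 3, 32, 28 and 39 without Model 1, 2 and 3, and 29, 35, 23 and 36 without Control 1 to 4. In HBG against Control they ranged from 16 to 53, against 27, and were 17 without HBG 2, 53 without Model 2, 17 without Control 1 and 16 without Control 3. In HBG against Model they were 0 throughout. Members called ranged from 0 to 1 in both comparisons with Control, the 1 being Cxcl9.

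DESeq2 called 6, 444 and 212 genes in HBG against Model, Model against Control and HBG against Control, with 0, 1 and 1 members. Limma-voom called 0, 1079 and 101, with 0, 2 and 0 members. A log2 fold change of at least 1 left 40 genes in Model against Control. The fit of 2 groups added 1 member, Cxcl9, there. Same-numbered libraries of different groups had correlations of their deviations from -0.357 to 0.481, with 3 of 12 pairs over 0.1, and 3 of 12 libraries correlated best with their own number, so the numbers were not taken as pairs. With the replicate block the calls were 0, 25 and 17, with no member, and the log2 fold change of Cxcl9 in HBG against Model was -0.248 in place of 0.070.

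Among member values under alternatives, 631 kept their sign and side of the threshold, 8 passed it and 21 changed sign, none of them past the threshold. Some of these settings could change little, such as the added fold-change limit or a left-out library of the group not compared. Under limma-voom the signs that turned were those of Iigp1 (-0.0975) and Cxcl9 (-1.12) in HBG against Model, Gbp5 (-0.00789) and Irgm2 (-0.0425) in Model against Control and Gbp3 (-0.0359) in HBG against Control. That of Gbp3 there also turned with Control 4, Model 2 and HBG 3 left out (-0.0711). With single libraries left out, log2 fold changes in HBG against Model ranged from -0.87 to 0.365 for Cxcl9 and -1.03 to 0.0642 for Cxcl10. In Model against Control they ranged from -0.000302 to 0.261 for Gbp5, -0.232 to 0.00633 for Igtp and -0.0854 to 0.175 for Irgm2. In HBG against Control they ranged from -0.0281 to 0.298 for Gbp2, -0.0423 to 0.213 for Gbp3, -0.0792 to 0.344 for Gbp7 and -0.109 to 0.989 for Cxcl10. The cause was not tested. Depth limited Cxcl9 in Control, at 9 or 10 counts a library, and left Ifng and Cxcl11 untested.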

Other observations

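Tgtp1 and Tgtp2, interferon-inducible GTPases of near-identical sequence, divided differently between libraries. Tgtp1 made up 38.8% of their summed CPM in HBG 1, 45.5% in Model 1, 47.5% in Model 3 and 35.1% in Control 3, and 18.3% to 28.9% in the other 8 libraries. HBG 1, Model 1 and Model 3 were also the libraries with the highest Cxcl9 and Cxcl10. Both genes carried fractions of counts in all 12 libraries, so the division of reads between them is uncertain. Their sum was 114, 72.1, 96.2 and 55.4 CPM in HBG 1 to 4, 61.7, 68.6, 62.9 and 56.7 CPM in Model 1 to 4 and 51.0, 57.8, 62.3 and 82.7 CPM in Control 1 to 4. This pair was singled out after its values were seen.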
